A study of Mus musculus with 12 samples.

Results

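The enzymes that convert squalene epoxide through lanosterol into cholesterol were followed in mouse liver after deletion of Acly and Acss2 directed to hepatocytes. They comprised 9 genes (Lss, Cyp51, Tm7sf2, Msmo1, Nsdhl, Hsd17b7, Ebp, Sc5d and Dhcr7), chosen by gene symbol from the 12284 named genes of the table, and each of the 9 was found in 1 row. All 9 had thus passed the authors' filter on low genes, and 0 of them stood at the lowest value of the table in any library. Polyadenylated liver RNA was sequenced in 12 libraries, 6 labelled WT and 6 labelled DKO. All animals carried the alleles Acly f/f; Acss2 f/f, in which both genes are flanked by loxP sites. At 6 to 8 weeks of age the DKO group received AAV8-TBG-Cre, an adeno-associated virus that expresses Cre recombinase from a promoter active in hepatocytes, and the WT group received AAV8-TBG-GFP. A Western diet (Teklad TD.88137) started 1 week after injection and lasted 6 weeks, so both groups were diet-fed floxed mice given virus. The promoter directs Cre to hepatocytes and not to the other cells of the liver. Effects of Cre and of GFP cannot be told apart from the loss of the genes. The labels do not say whether each library came from a separate mouse, and p-values therefore measure the spread between libraries.

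Cholesterol is built from acetyl-CoA, which ACLY makes from citrate and ACSS2 from acetate in the cytosol. The carbon passes through mevalonate to squalene and its epoxide, and the enzymes studied here take over at the closure of the sterol rings. They then strip methyl groups from lanosterol and move and reduce its double bonds until cholesterol remains. Most genes of the pathway are induced by SREBP2, a transcription factor released from the endoplasmic reticulum when membrane sterol is low, and dietary cholesterol reaching the liver lowers their expression.

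Values were log2 CPM, the reads of a gene relative to all reads of its library, and differences below are DKO minus WT on that scale. The number of reads per library is unknown. Acly stood at 6.56 to 9.35 log2 CPM in WT and at 4.42 to 6.60 in DKO, and fell by 2.51 (SE 0.46, adjusted p = 0.0165 by limma); its highest DKO library, DKO 1, lay just above the lowest WT library. Acss2 stood at 6.12 to 7.45 in WT and at 3.59 to 5.74 in DKO, without overlap, and fell by 2.18 (SE 0.33, adjusted p = 0.00571 by limma). WT 1 stood apart from the other WT libraries in many of the genes described below, and results that turn on it are given with and without it. Hepatocyte markers were abundant in all libraries, with 8 of 8 measured and a summed level of 86412 to 100141 CPM in WT and 67099 to 97581 CPM in DKO. Beside the sterol results below, all 10 macrophage and Kupffer cell markers had higher means in DKO and 2 of them, Lyz2 and Gpnmb, rose, against 0.619% of all genes. Without WT 1 it was 6, against 1.27% of all genes, and without both libraries numbered 1 it was 3, against 0.782%. Their summed level was 241 to 441 CPM in WT and 330 to 519 CPM in DKO. All 6 stellate cell markers (186 to 237 CPM in WT, 250 to 350 in DKO) and all 6 endothelial markers (179 to 207 and 180 to 253 CPM) also had higher means, and 0 of them passed limma's test. Of 4 measured cholangiocyte markers 3 had higher means and 1, Spp1, rose, against 0.619% of all genes (19.4 to 31.2 CPM in WT, 32.4 to 61.8 in DKO). Spp1 made up most of that level, with a mean of 4.26 log2 CPM in WT and 5.13 in DKO. Krt19 differed by 0.53, Sox9 by 0.00921 and Krt7 by -0.24, without passing. The 3 measured genes of the lymphocyte list, Cd79a, Cd79b and Ptprc, had higher means without passing (9.44 to 16.8 CPM in WT, 8.87 to 25.7 in DKO). Ptprc, also a gene of other leukocytes, made up most of that level, with a mean of 3.31 log2 CPM in WT and 4.02 in DKO. Cfd, the 1 measured adipocyte marker, fell (0.776 to 19.2 and 0.104 to 3.41 CPM). Gpnmb stood at the lowest value of the table in 3 libraries and Cfd in 2. Among 8 hepatocyte markers 6 had lower means and 2, Asgr1 and Serpina1c, fell, against 1.12% of all genes (3 without WT 1, against 1.77%). At an unadjusted p below 0.05 by limma there were 10 of 10 macrophage, 5 of 6 stellate and 4 of 6 endothelial markers, all higher. There were also 3 of 8 hepatocyte markers, all lower, 1 of 4 cholangiocyte and 1 of 3 lymphocyte genes, both higher, against 16.4% of all genes. The part of these cells in the sterol results was not tested, and in whole liver fewer cells of a type and less RNA per cell cannot be told apart.

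Promoter sequences were taken from RefSeq (GRCm38.p6; the submitters' processing notes name GRCm39), where all 9 genes matched by symbol with 11 windows of 250 bases before to 50 bases after a transcript start. The following 4 are examples. Those of Lss, Dhcr7 and Ebp belong to the enzymes with an unadjusted p below 0.05 by limma, which Cyp51 did not reach. Capitals mark letters of 3 motifs on either strand: the NF-Y box CCAAT, the GC box GGGCGG, and TCACNNCA, a loose form of the sterol regulatory element to which SREBP proteins bind. The stretches are chr5:4104698-4104897 on the minus strand for Cyp51, chr7:143830014-143830213 on the plus strand for Dhcr7 (the last of its 3 annotated starts), chr10:76531405-76531564 on the plus strand for Lss and chrX:8193513-8193712 on the minus strand for Ebp, each read 5′ to 3′ toward the start; the stretch for Lss ends 40 bases before the start its window was built on.
Cyp51: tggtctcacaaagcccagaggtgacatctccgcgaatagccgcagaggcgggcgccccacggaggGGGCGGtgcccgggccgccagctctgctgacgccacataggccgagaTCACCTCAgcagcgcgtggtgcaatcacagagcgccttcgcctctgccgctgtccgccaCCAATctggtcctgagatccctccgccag
Dhcr7: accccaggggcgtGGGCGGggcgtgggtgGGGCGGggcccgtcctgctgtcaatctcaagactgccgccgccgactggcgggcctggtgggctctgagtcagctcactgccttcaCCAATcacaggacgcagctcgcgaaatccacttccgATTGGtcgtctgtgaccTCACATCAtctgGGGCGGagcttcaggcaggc
Lss: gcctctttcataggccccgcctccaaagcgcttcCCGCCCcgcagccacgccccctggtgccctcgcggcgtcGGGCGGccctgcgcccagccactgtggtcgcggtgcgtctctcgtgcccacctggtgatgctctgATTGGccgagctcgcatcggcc
Ebp: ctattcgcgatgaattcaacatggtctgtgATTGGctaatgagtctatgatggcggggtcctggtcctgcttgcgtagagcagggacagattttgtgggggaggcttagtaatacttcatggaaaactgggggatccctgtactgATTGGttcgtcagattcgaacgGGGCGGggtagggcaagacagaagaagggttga

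CCAAT was found in at least 1 window of 9 of 9 genes and in 9 of their 11 windows, against 37.4% of all 32851 windows. GGGCGG was found in 10 of 11 windows (9 of 9 genes), against 35.7% of all windows. The stricter sterol regulatory element core TCACNCCAC, which held for 1.24% of all windows, was found in 0 of 11. TCACNNCA, which contains every match of the stricter form and was chosen after the sequences had been seen, was found for 6 of 9 genes (Cyp51, Msmo1, Nsdhl, Hsd17b7, Sc5d and Dhcr7), against 15.7% of all genes, and in 7 of 11 windows, against 13.8% of all windows. It was not found in the windows of Lss, Tm7sf2 and Ebp. A match is a description of letters and not of a bound site.

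Of the 9 sterol enzymes 8 had a higher mean than in WT, by 0.18 (Tm7sf2) to 0.82 (Dhcr7) log2 units, while Ebp had a lower one (-0.28). Across all genes 50.8% had a higher mean in DKO. Among the enzymes 0 passed limma's test at an adjusted p below 0.05, where 1.74% of all genes did (0.619% higher and 1.12% lower). At an unadjusted p below 0.05 there were 3 of 9 (Lss and Dhcr7 higher, Ebp lower) by limma, against 16.4% of all genes, and the same number by the exact permutation test, against 16.2%. That test called 0 genes after adjustment over all genes. A gene at the smallest p that its 924 divisions allow, 0.00216, had an adjusted p of 0.10. Too few genes reached that p for any to pass. The median log2 fold change was 0.39 for the enzymes and 0.00414 for all genes.

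**Figure D1:**
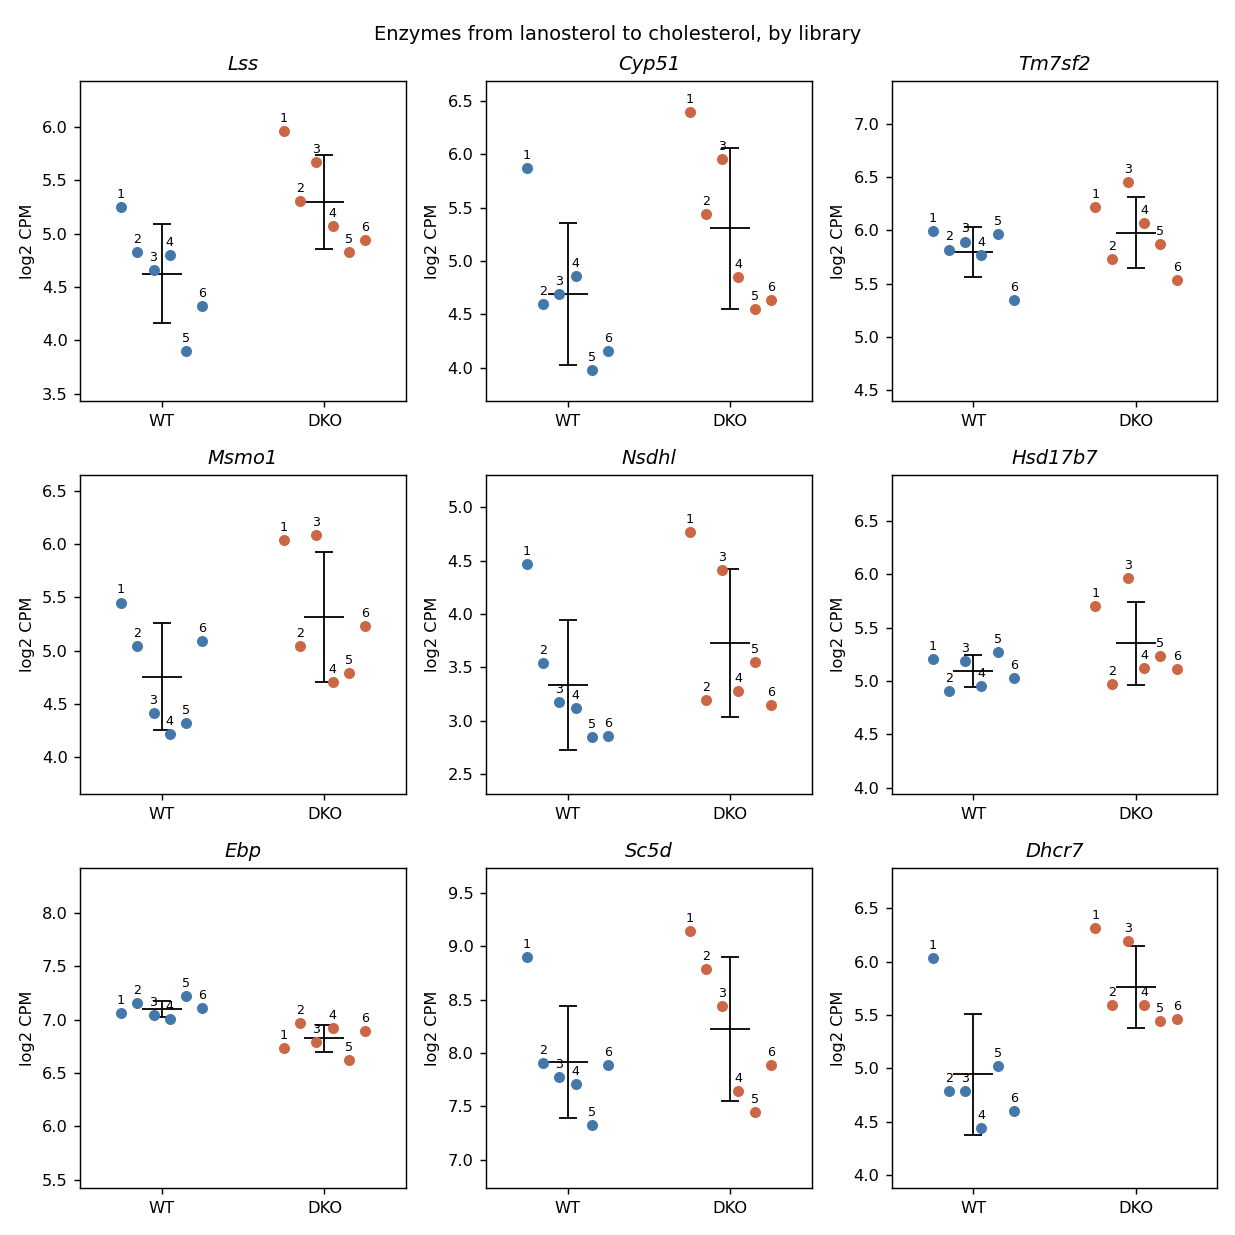
Level of each enzyme in each library (vertical axis, log2 CPM, all panels spanning the same range), with the library number beside each point and the mean ± SD of 6 libraries as bars. The 6 WT and 6 DKO points are separate for Ebp alone, with all DKO libraries at or below 6.97 and all WT libraries at or above 7.01; in the other 8 panels WT 1 lies within the DKO range.

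Lss, lanosterol synthase, closes the rings of squalene epoxide. Its level was 5.25, 4.83, 4.66, 4.80, 3.90 and 4.32 log2 CPM in WT 1 to WT 6 and 5.96, 5.31, 5.67, 5.07, 4.83 and 4.94 in DKO 1 to DKO 6. All 6 DKO libraries lay above the WT mean, but WT 1 exceeded 3 of them and WT 2 matched DKO 5, the lowest. Lss averaged 4.63 (SD 0.46) over the 6 WT libraries and 5.30 (SD 0.44) over the 6 DKO libraries. The difference was 0.67 (SE 0.23, 95% interval 0.18 to 1.17, adjusted p = 0.152 by limma), and without WT 1 it was 0.80 (adjusted p = 0.0733). Without both libraries numbered 1 it was 0.66 (adjusted p = 0.118 by limma). Leaving out 1 library at a time gave 0.53 to 0.80 (adjusted p from 0.0733 to 0.279 by limma).

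Cyp51, the cytochrome P450 that removes the first methyl group of lanosterol, had a wide spread within both groups, with a pooled SD of 0.714. It stood at 5.87, 4.60, 4.69, 4.86, 3.97 and 4.16 log2 CPM in WT 1 to WT 6 and at 6.40, 5.44, 5.96, 4.85, 4.55 and 4.63 in DKO 1 to DKO 6. WT 1 exceeded 4 of the 6 DKO libraries. The difference was 0.61 (SE 0.35, 95% interval -0.14 to 1.37, adjusted p = 0.412 by limma), and it was 0.40 without DKO 1. Tm7sf2, a sterol reductase that acts on the product of Cyp51, ranged from 5.35 to 5.99 log2 CPM in WT (median 5.86) and from 5.53 to 6.45 in DKO (median 5.97). The groups overlapped over most of their ranges, and the difference was 0.18 (SE 0.15, 95% interval -0.14 to 0.51, adjusted p = 0.606 by limma), or 0.09 without WT 6 or without DKO 3.

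The remaining methyl groups are removed by Msmo1, a methylsterol oxidase, Nsdhl, a decarboxylating sterol dehydrogenase, and Hsd17b7, a ketoreductase that also acts on sex steroids. Msmo1 ranged from 4.22 to 5.45 log2 CPM in WT (median 4.73) and from 4.70 to 6.08 in DKO (median 5.14). DKO 3 (6.08) and DKO 1 (6.04) were its highest libraries and the other 4 DKO libraries lay within the WT range. Msmo1 differed by 0.56 (SE 0.28, 95% interval -0.04 to 1.16, adjusted p = 0.336 by limma).

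Nsdhl, an X-linked gene like Ebp, ranged from 2.84 to 4.47 log2 CPM in WT (median 3.14) and from 3.14 to 4.77 in DKO (median 3.41). Apart from WT 1 (4.47), DKO 1 (4.77) and DKO 3 (4.42), the libraries of both groups lay together between 2.84 and 3.55. The difference was 0.39 (SE 0.33, 95% interval -0.31 to 1.10, adjusted p = 0.606 by limma), and it was 0.62 without WT 1, 0.18 without DKO 1 and 0.25 without DKO 3. Hsd17b7 ranged from 4.91 to 5.27 log2 CPM in WT (median 5.11) and from 4.97 to 5.96 in DKO (median 5.18). DKO 1 (5.70) and DKO 3 (5.96) lay above the WT range and the other 4 DKO libraries within it, and the difference was 0.26 (SE 0.16, 95% interval -0.07 to 0.60, adjusted p = 0.434 by limma), or 0.14 without DKO 3.

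Ebp, the isomerase that shifts the double bond of the sterol ring, differed in the direction opposite to the other 8 enzymes. It stood at 7.07, 7.16, 7.04, 7.01, 7.22 and 7.11 log2 CPM in WT 1 to WT 6 and at 6.74, 6.97, 6.79, 6.92, 6.63 and 6.90 in DKO 1 to DKO 6. Every DKO library was below every WT library, which held for 1.38% of all genes in this direction and 2.17% in either direction (0.79% with DKO higher). The groups were also separate without both libraries numbered 1, as for 2.78% of all genes in that direction. The mean was 7.10 (SD 0.08) over the 6 WT libraries and 6.82 (SD 0.13) over the 6 DKO libraries, so that the DKO level was 82.5% of the WT level. The difference of -0.28 (SE 0.07, 95% interval -0.43 to -0.12) had an exact permutation p of 0.00216, the smallest that 924 divisions of 12 libraries allow, and an adjusted p of 0.0744 by limma, above the threshold. With quantile normalization it was -0.18. Ebp also had the smallest spread of the 9 enzymes within groups, a pooled SD of 0.108 log2 CPM against 0.29 to 0.714 for the others. A ratio to the other 8 enzymes in the same library does not depend on library scaling. Ebp exceeded the mean of the other 8 by 1.17 to 2.39 log2 CPM in WT and by 0.42 to 1.65 in DKO; these ranges overlap, and WT 1, at 1.17, was the only WT library below 1.97.

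Sc5d, the desaturase that follows Ebp, and Dhcr7, the reductase that removes the double bond Ebp has shifted, differed in how well the groups separated. Sc5d ranged from 7.33 to 8.90 log2 CPM in WT (median 7.83) and from 7.44 to 9.14 in DKO (median 8.16). WT 1 (8.90) was second only to DKO 1, and 3 DKO libraries lay above the WT mean and 3 below it. The difference was 0.31 (SE 0.30, 95% interval -0.34 to 0.95, adjusted p = 0.668 by limma). It was 0.50 without WT 1 and 0.46 without DKO 5, but 0.12 without DKO 1, 0.19 without WT 5 or DKO 2, and 0.16 with array weights.

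Dhcr7 had the largest difference of the 9 enzymes. Its levels were 6.03, 4.78, 4.79, 4.44, 5.02 and 4.60 log2 CPM in WT 1 to WT 6 and 6.32, 5.59, 6.19, 5.59, 5.45 and 5.46 in DKO 1 to DKO 6. WT 1 was the single WT library within the DKO range, and the other 5 WT libraries lay at or below 5.02. With all libraries the mean was 4.94 (SD 0.57) in WT and 5.77 (SD 0.38) in DKO, and the difference was 0.82 (SE 0.24, 95% interval 0.30 to 1.34, adjusted p = 0.10 by limma). The exact permutation p was 0.0195. Without WT 1 the difference was 1.04 (SE 0.17) and passed (adjusted p = 0.00902 by limma), where 3.04% of all genes passed and 1.27% of all genes rose. Without both libraries numbered 1 it was 0.93 (SE 0.15, adjusted p = 0.0116 by limma), where 2.08% of all genes passed, 0.782% higher and 1.29% lower. Dhcr7 was in both cases the 1 enzyme of the 9 that passed. Without both libraries numbered 1 its groups did not overlap, which held for 2.17% of all genes in that direction. Leaving out 1 library at a time gave differences of 0.71 to 1.04 (adjusted p from 0.00902 to 0.187 by limma). Among these fits Dhcr7 passed only without WT 1, its highest WT library.

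**Figure D2:**
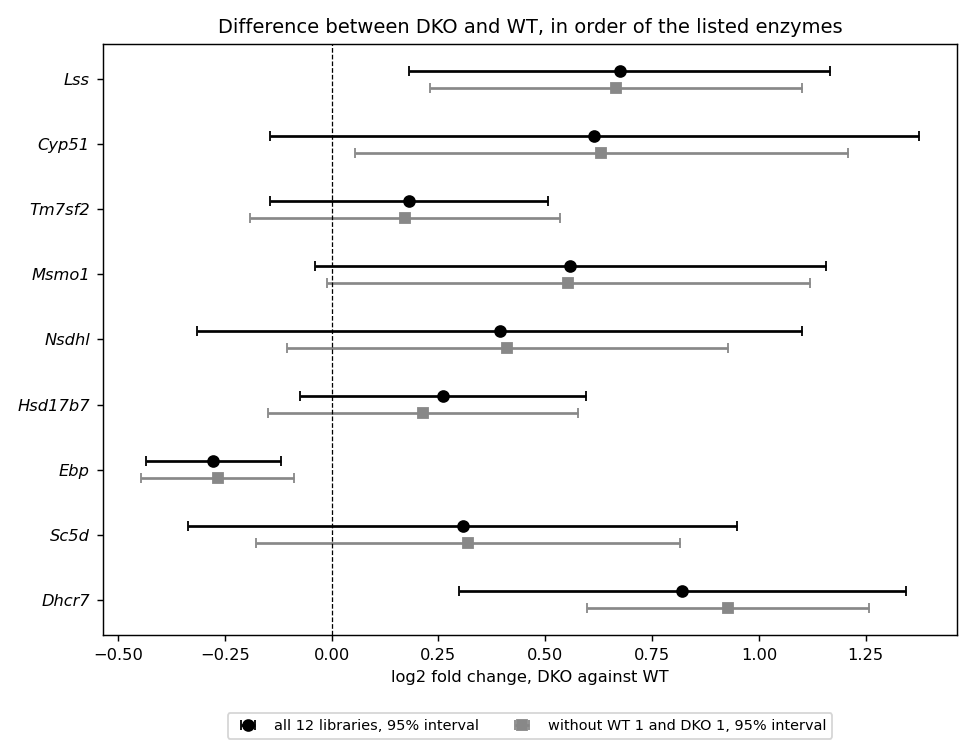
Difference between DKO and WT for each enzyme (horizontal axis, log2 fold change), with 95% intervals from limma for all 12 libraries (black) and for 10 libraries without WT 1 and DKO 1 (grey). Ebp lies to the left of 0, at -0.28 and -0.27, and the other 8 lie to the right in both sets; Dhcr7 is farthest right, at 0.82 and 0.93.

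Within each group the enzymes varied together from library to library, Ebp excepted. WT 1 was the highest WT library for 7 of the 9 enzymes and DKO 1 or DKO 3 the highest DKO library for 8 of 9. The mean of the 9 enzymes lay 0.66 above its group mean in WT 1, 0.61 above in DKO 1 and 0.46 above in DKO 3, and between -0.38 and 0.04 in the other 9 libraries. WT 1 resembled its group in the transcriptome as a whole less than the other WT libraries did, with a mean Pearson r across genes of 0.951 against 0.959 to 0.965. In DKO this mean r was 0.945 to 0.959, lowest in DKO 1, so WT 1 was not the library least like its group. WT 1 was also the highest WT library for 10 of 10 mevalonate genes, 7 of 8 fatty acid synthesis genes and 8 of 10 macrophage markers. For sterol sensing and uptake genes it was 11 of 17, for electron partners 5 of 10 and for esterification and export genes 3 of 14. Among hepatocyte markers it was 3 of 8 and among endothelial markers 2 of 6. The share over all genes was not computed, and the part of macrophages in this was not tested. The mean of the 9 enzymes was 6.03 log2 CPM in WT 1 and 5.09 to 5.40 in the other WT libraries, against 5.37 to 6.37 in DKO.

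**Figure D3:**
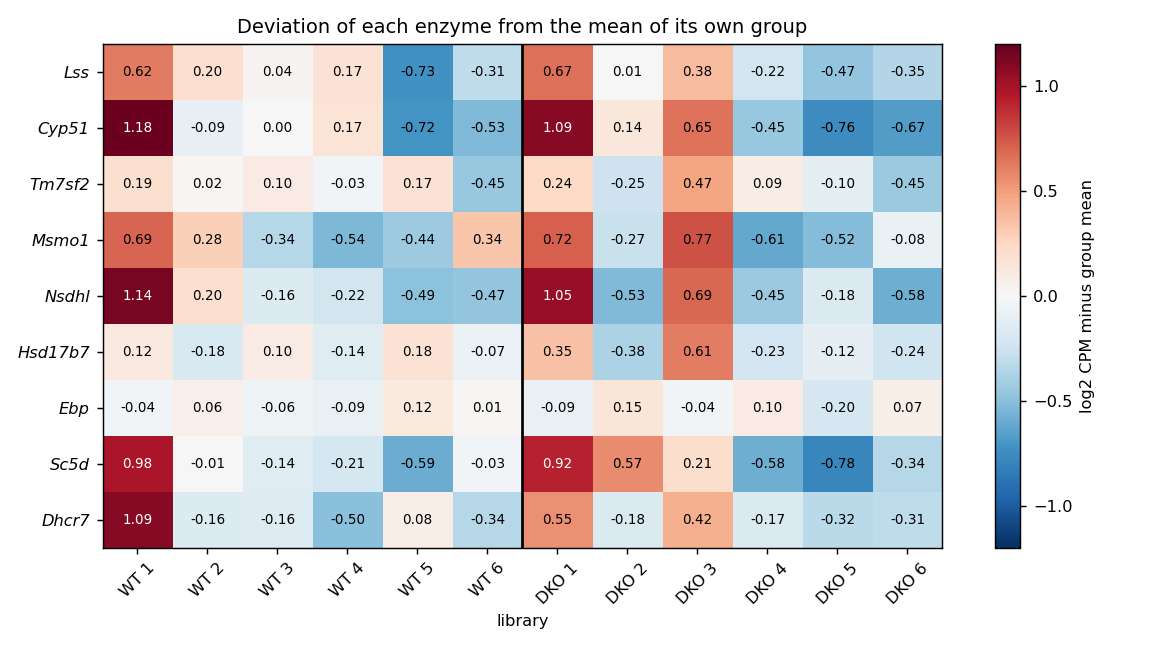
Deviation of each enzyme (rows) from the mean of its own group in each library (columns), in log2 CPM, red for above and blue for below. WT 1, DKO 1 and DKO 3 are red for the enzymes other than Ebp, which stays between -0.20 and 0.15 throughout.

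After group means were removed, the 28 pairs of enzymes without Ebp all had a positive Pearson r over the 12 libraries, from 0.26 to 0.96 with a median of 0.71. Lss and Cyp51 made the closest pair. The 8 pairs with Ebp had an r of -0.43 to -0.01. Against the mean of the other members, Cyp51 (r = 0.93) and Nsdhl (0.93) followed most closely, then Lss (0.87), Dhcr7 (0.85), Sc5d (0.82), Msmo1 (0.80), Hsd17b7 (0.62) and Tm7sf2 (0.59), and Ebp stood at -0.25. Without WT 1 and DKO 1 these values were 0.82, 0.79, 0.73, 0.65, 0.54, 0.64, 0.59 and 0.54, and -0.06 for Ebp. All values share the same 12 libraries and their scaling, and they are descriptions.

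The genes outside the set whose deviations were most like the mean of the 9 enzymes, among 10760 genes averaging 1 log2 CPM or more, were Rdh11, a retinol dehydrogenase (r = 0.96 over 12 libraries), Acat2, the cytosolic thiolase at the head of the mevalonate pathway (0.96), Fdps, farnesyl diphosphate synthase (0.95), Ibtk (0.93), Acsl5, an acyl-CoA synthetase (0.92), and Tnpo2 (0.91). Without WT 1 and DKO 1 their r was 0.83 to 0.95. Gpt, alanine aminotransferase (-0.95), Kiz (-0.94) and Slc30a6, a zinc transporter (-0.91), were most unlike it. The genes most like Ebp were Fam214b (0.87), Cyth1 (0.87) and Gtf3c2 (0.80). None of these 12 genes passed limma's test between the groups (adjusted p from 0.221 to 0.957, and 2 of them, Fdps and Gpt, had an unadjusted p below 0.05). The exact permutation test called 0 genes after adjustment over all genes.

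The 6 lists of lipid metabolism compared here held 1 called gene, where 1.74% of all genes were called. It belonged to the list of other enzymes and electron partners of these steps. Of 11 listed genes 10 were measured, 5 higher and 5 lower in DKO, and the median log2 fold change was -0.03. Pgrmc1, a haem-binding membrane protein that associates with cytochromes P450 including Cyp51, fell. It ranged from 9.49 to 9.80 log2 CPM in WT (median 9.73) and from 9.14 to 9.49 in DKO (median 9.26), with the lowest WT library, WT 1, level with the highest DKO library, DKO 2. The DKO level was 75.1% of WT (a difference of -0.41, SE 0.08, adjusted p = 0.0214 by limma), and 1.12% of all genes fell. Leaving out WT 2, WT 3, WT 4, WT 5 or DKO 4 took its adjusted p to between 0.0546 and 0.058, and quantile normalization took it to 0.141. The exact permutation test gave an adjusted p of 0.12, where 0.10 was the smallest for any gene.

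Cyb5a, cytochrome b5, hands electrons to Msmo1 and Sc5d; it differed by -0.38 (SE 0.10, adjusted p = 0.0788 by limma). Without WT 1 it fell by 0.44 (adjusted p = 0.0279), where 1.77% of all genes fell. Cyb5r3, the reductase that feeds cytochrome b5, differed by 0.11 (SE 0.13, adjusted p = 0.725 by limma), with 0.05 to 0.19 when single libraries were left out (lowest without WT 6, highest without WT 1; also 0.06 without WT 5, DKO 1 or DKO 3) and 0.26 with quantile normalization. Por, which supplies electrons to Cyp51 and all microsomal P450 enzymes, differed by -0.54 (SE 0.34, adjusted p = 0.467 by limma), and by -0.27 without DKO 1. Lbr, the lamin B receptor, carries the same reductase activity as Tm7sf2, and differed by 0.43 (SE 0.16, 95% interval 0.09 to 0.77, limma adjusted p = 0.177). Cyb5a and Lbr were named after their values had been seen.

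Upstream of lanosterol, 9 of 10 genes from Acat2 to Sqle had a higher mean in DKO and 0 passed limma's test, with a median log2 fold change of 0.50. At an unadjusted p below 0.05 there were 3 of 10 by limma and 2 by the exact permutation test, against 16.4% and 16.2% of all genes. Sqle, squalene epoxidase, makes the substrate of Lss and had the largest difference. It stood at 4.89, 1.76, 0.98, 1.36, 1.37 and 1.37 log2 CPM in WT 1 to WT 6 and at 5.46, 2.78, 4.66, 3.58, 3.32 and 3.38 in DKO 1 to DKO 6. As for Dhcr7, WT 1 was the single WT library inside the DKO range. The difference was 1.91 (SE 0.62, adjusted p = 0.128 by limma). It was 2.49 (SE 0.40, adjusted p = 0.00743) without WT 1 and 2.17 (SE 0.30, adjusted p = 0.00455) without both libraries numbered 1. Leaving out 1 library at a time gave 1.59 to 2.49 (adjusted p from 0.00743 to 0.236 by limma), and Sqle passed only without WT 1. Without WT 1 the genes of this list that passed were Sqle, Fdps and Pmvk, the last named after its values had been seen, where 1.27% of all genes rose. Without both libraries numbered 1 Sqle alone passed, where 0.782% of all genes rose, and Fdps and Pmvk had limma adjusted p of 0.0616 and 0.0716. Idi1 differed by 1.47 (SE 0.66, adjusted p = 0.289 by limma; 0.83 on the log2(CPM + 1) scale) and Fdps by 1.12 (SE 0.45, adjusted p = 0.221).

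**Figure D4:**
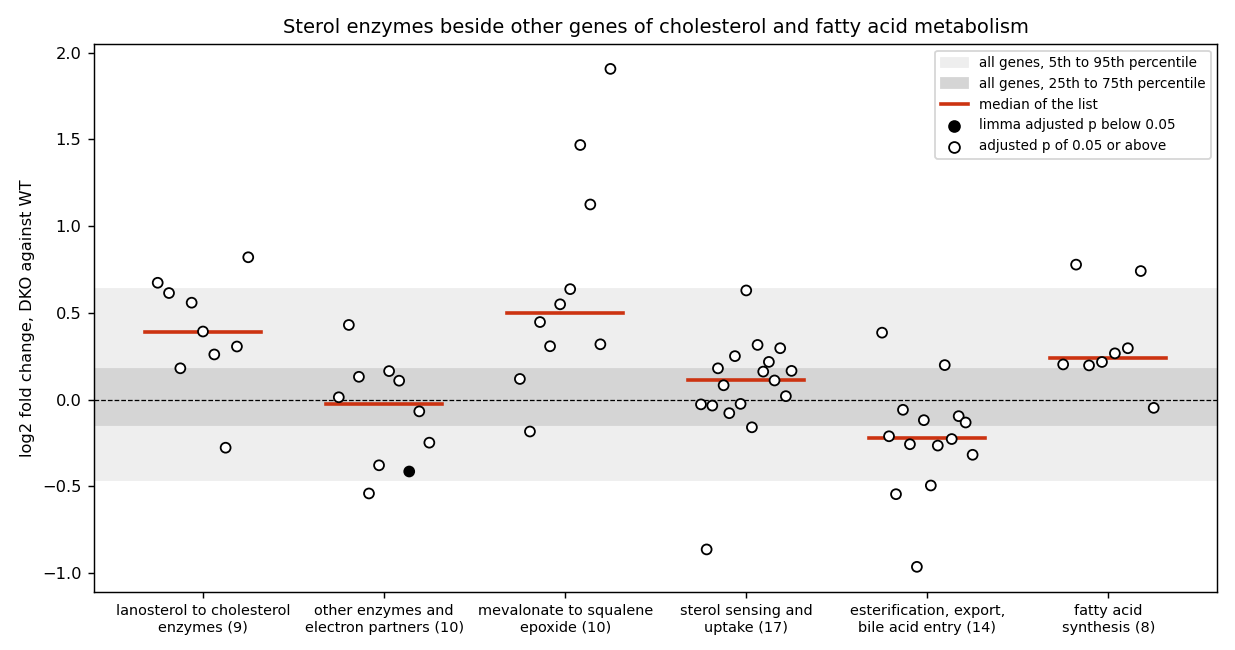
Log2 fold change, DKO against WT (vertical axis), of the measured genes of 6 lists, with the median of each list in red and the spread of all 12284 genes in grey bands. The bands span the 5th to 95th and the 25th to 75th percentile of single genes, a description with which a list's median is not compared. The list medians run from -0.22 (esterification, export and bile acid entry) to 0.50 (mevalonate genes), and the 1 filled point is Pgrmc1.

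Among genes that sense sterol or take it up, 11 of 17 measured had a higher mean in DKO, 0 passed limma's test and the median was 0.11. At an unadjusted p below 0.05 there were 2 of 17 by limma and 1 by the exact permutation test, against 16.4% and 16.2% of all genes. Srebf2, the gene of SREBP2, differed by -0.03 (95% interval -0.31 to 0.25, adjusted p = 0.947 by limma), and its sign changed when WT 1, WT 5, DKO 4 or DKO 6 was left out (-0.0825 to 0.0512 over all single libraries). Npc2, a lysosomal sterol carrier, differed by 0.32 (SE 0.09, adjusted p = 0.103 by limma). Without WT 1 it rose by 0.37 (adjusted p = 0.0444), where 1.27% of all genes rose. Without both libraries numbered 1 it differed by 0.37 and did not pass (adjusted p = 0.0756). Srebf1, the gene of SREBP1, differed by -0.86 (SE 0.35, adjusted p = 0.23).

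Another list held genes of cholesterol esterification, export and bile acid entry, and included the receptor genes Nr1h3 and Nr1h2. Of its 14 measured genes 12 had a lower mean in DKO, 0 passed limma's test and the median was -0.22. At an unadjusted p below 0.05 there were 4 of 14 by limma and 3 by the exact permutation test, against 16.4% and 16.2% of all genes. Soat2, which esterifies cholesterol in hepatocytes, differed by -0.21 (SE 0.08, adjusted p = 0.18 by limma), Nr1h2, the gene of LXRβ, by -0.32 (SE 0.12, adjusted p = 0.193), Cyp46a1 by -0.96 (SE 0.42, adjusted p = 0.27) and Cyp7a1, the first enzyme of bile acid synthesis, by -0.54 (SE 0.29, adjusted p = 0.372; -0.33 without WT 5). In fatty acid synthesis 7 of 8 genes had a higher mean, with a median of 0.24, and 0 passed (0 at an unadjusted p below 0.05 by limma and 0 by the exact permutation test). Acacb differed by 0.78 (SE 0.40), Pnpla3 by 0.74 (SE 0.91) and Scd1 by 0.27 (SE 0.26), with limma adjusted p of 0.348, 0.739 and 0.672. Acacb differed by 0.47 without WT 6. Pnpla3 differed by 1.47 without WT 1 and 1.16 without DKO 6, by 0.37 without WT 4 and 0.15 without DKO 1, and by 0.38 on the log2(CPM + 1) scale. Scd1 differed by 0.47 without DKO 6, 0.14 without WT 6, 0.17 without DKO 1 and 0.17 with array weights.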

How the data were processed

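The authors deposited log2 CPM for 12 liver libraries, after a filter on low genes and a normalization that the title of their table mentions. The sources used here do not give how either was done or what count was added before taking logs. Tools listed in the submitters' processing notes are kallisto 0.46.2, edgeR and limma, with the build GRCm39 (mm39) and no roles. Of 12285 rows, 1 without a name, holding 0.0075% to 0.0148% of the CPM of a library, was left out. Erg28 and Adgre1 were matched through older symbols in RefSeq's gene table.

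Groups were taken from the genotype labels. All 12284 genes were fitted with limma 3.58.1 in R 4.3.3 (mean trend, 2-sided, Benjamini-Hochberg adjustment, threshold 0.05) without further filter or covariate, and the fit was tested on simulated data. Single values were compared by a 2-sided exact permutation test. Genes other than the 9 enzymes were named where called, or by the 2 smallest p and the 2 largest differences of a list, besides a fixed set that included Srebf2, Sqle, Por and Cyb5r3 (a few others it picks are not reported here); likeness was ranked by Pearson r of deviations from group means. The enzymes, lists and alternatives were chosen with earlier results of these data known. Alternatives were other limma settings, scalings, filters, log2(CPM + 1), the exact test, a replicate block and leaving out libraries.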

Additional observations from a re-analysis of the deposited data

Results flagged for a closer look

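In 7 of 60 groups of 6 libraries, covering the 30 genes named from the lists with Acly and Acss2, 1 library stood far from the other 5 by Dixon's ratio. Chance flags about 1 group in 20 where groups are independent. These genes share the same 12 libraries, many vary together and some were named by their results, so the 7 are not set against that rate. WT 1 was the library standing apart in 6 of the 7. For Dhcr7 it stood at 6.03 log2 CPM against 5.02 in the next WT library, and for Sc5d at 8.90 against 7.91. For Sqle it stood at 4.89 against 1.76, for Pmvk at 4.39 against 3.13 and for Pnpla3 at 3.78 against 0.34. Acss2, the deleted synthetase, stood at 7.45 in WT 1 against 6.50. The remaining one was Tm7sf2, lowest in WT 6 at 5.35 against 5.77 in the next library.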

How the results depend on the processing

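Over 23 alternatives, each of the 9 enzymes kept the sign of its difference; of 207 values, 201 stayed on the same side of the threshold and 6 newly passed it. Enzymes called were 2 with array weights (Ebp, adjusted p = 0.0437, and Dhcr7, 0.0424), 1 without both libraries numbered 1, and 0 to 1 with 1 library left out, the 1 being Dhcr7 without WT 1. The adjusted p ranged from 0.0437 to 0.236 for Ebp and from 0.00902 to 0.211 for Dhcr7. Numbers of all genes called were 138 without the mean trend, 109 with quantile normalization, 356 with array weights, 0 by the exact permutation test (1996 at an unadjusted p below 0.05) and 92 to 373 with 1 library left out. The smallest adjusted p of the exact test was 0.10, a value that depends on how many genes reach its smallest p. Electron partners called were 0 with quantile normalization or the exact test, 2 with array weights or without both libraries numbered 1, and 0 to 2 with 1 library left out. Mevalonate genes called were 1 with array weights, 1 without both libraries numbered 1 and 0 to 3 with 1 left out, and sterol sensing genes 0 to 1. Among the named genes, the difference of Srebf2 changed sign (-0.0825 to 0.0512 with 1 library left out). The cause was not tested. With the replicate number as a block, 397 genes were called, and 2 enzymes (Lss, adjusted p = 0.0147, and Dhcr7, 0.0193), 3 electron partners, 2 mevalonate genes and 1 sterol sensing gene. The labels do not say whether a number pairs libraries, and this was not tested. The deviations of same-numbered libraries correlated at -0.08 to 0.29 across genes, over 0.1 in 2 of 6 pairs. Of 12 libraries 7 correlated best with their own number. Each correlation entered from both of its libraries, so the 12 are not independent and the 7 are not set against a chance rate. Depth is unknown, so counting error could not be separated from other spread.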
